A study of Homo sapiens with 2 samples.

Results

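The subunits of the mitochondrial respiratory chain and ATP synthase that are encoded in the nucleus were examined for RBMS3-binding sites in their transcripts. Members were taken by gene name from the protein-coding genes of GENCODE release 44: the NDUFA, NDUFB, NDUFC, NDUFS and NDUFV genes of complex I, SDHA to SDHD of complex II, the UQCR genes and CYC1 of complex III, CYCS, the COX4I, COX5, COX6, COX7 and COX8 genes of complex IV, and the ATP5 genes of complex V. NDUFA4, NDUFA4L2 and COX7A2L, which carry names of other groups or of supercomplex factors, were counted with complex IV. The assembly factors named NDUFAF were left out. These names gave 92 of 20046 protein-coding genes, and 205 of the 27706 listed sites lay in them on the same strand.

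The sites came from CLIP-seq of FLAG-tagged RBMS3 in the triple-negative human breast cancer line MDA-MB-231, which also makes RBMS3 of its own. The tagged protein was delivered with a lentivirus, so it was present beside the endogenous protein, and cells were crosslinked with ultraviolet light before RBMS3 was pulled down through its FLAG tag. There was 1 group of 2 biological replicates. The source and cell line labels of replicate 2 read MDA-MB-232, and it was used as MDA-MB-231 because its title says so. The deposited list gives 1 set of sites called on the pooled replicates, no untagged control was analysed here, and therefore no value has a replicate error and no test between groups was possible. Each site is a position at which sequenced tags carry a deletion, with the number of tags that cover it and the number with the deletion. Both numbers rise with the abundance of a transcript, which was not measured here, so a larger count is not a stronger binding, and a gene without a site may be unbound, too little expressed or too shallowly covered.

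Oxidative phosphorylation couples the transfer of electrons along complexes I to IV to the pumping of protons, and complex V uses the proton gradient to make ATP. Most subunits are made from nuclear genes, translated in the cytosol and imported, while a small core is made inside the mitochondrion from its own DNA. The messages of many small subunits have short 3′ untranslated regions (3′UTRs). Cleavage and polyadenylation of a message is directed by the poly(A) signal, most often AATAAA and less often ATTAAA in DNA letters, which lies shortly upstream of the transcript end. RBMS3 is a single-stranded nucleic acid binding protein with RNA recognition motifs.

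The sequence at the site with the most deletions is shown for some of the named members of complexes I to V, so that the position of the deletion can be read against the poly(A) signal. Each run has 30 bases of the hg38 reference in the direction of the transcript, the deleted base is number 16 from the left, and capitals mark each AATAAA or ATTAAA. Bases past an annotated transcript end are genomic.
NDUFB3 (chr2:201085705-201085734, plus strand): agaatattagtaagatttaatcaATTAAAa
NDUFC1 (chr4:139289974-139290003, minus strand): tatcaagccagcatttgtattttgcatcat
NDUFAB1 (chr16:23581029-23581058, minus strand): aaattgtatgtgttttactctttgaaaata
NDUFB6 (chr9:32553776-32553805, minus strand): ctggaaaagtaactttAATAAAgtttaatc
SDHB (chr1:17018724-17018753, minus strand): aatgttattctactttattaacaaaaaaaa
SDHD (chr11:112095732-112095761, plus strand): attctatgaaaataatttttttaAATAAAa
SDHC (chr1:161363168-161363197, plus strand): tgaATTAAAtactcattttatctttgactc
UQCRH (chr1:46316746-46316775, plus strand): ccatctaAATAAAagttctatgatctgcaa
UQCRQ (chr5:132867631-132867660, plus strand): gaagaggagtctgcattgtagtgtctcaaa
COX7C (chr5:86620727-86620756, plus strand): gccatactagatatgtttgtcAATAAActt
COX8A (chr11:63976518-63976547, plus strand): taacAATAAAatctatttaaactttacttc
COX7A2 (chr6:75237779-75237808, minus strand): cAATAAAgcagtctttaccatgctttgtct
COX6A1 (chr12:120440700-120440729, plus strand): ggagatggcttaAATAAAtaacttaaattt
NDUFA4 (chr7:10933460-10933489, minus strand): acaatgATTAAAtcAATAAAtaactgaaac
ATP5F1C (chr10:7807749-7807778, plus strand): gaagacagcaagatatttgtaaattatctt
ATP5F1B (chr12:56638193-56638222, minus strand): tttctgaacagtatttaaggtttccaataa
ATP5MC3 (chr2:175178151-175178180, minus strand): atttccaaagtcatttcATTAAAgatgaaa
ATP5MK (chr10:103389062-103389091, minus strand): tgtgataattcaatttgtacAATAAAttat

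In NDUFB3, NDUFC1, NDUFB6, SDHB, COX7C, COX8A, COX7A2, ATP5F1B, ATP5F1C, ATP5MC3 and ATP5MK the deleted base was 1 T of a run of 3, and in SDHD of a run of 7. A deletion inside such a run cannot be assigned to 1 base of it. In NDUFC1, NDUFAB1, SDHB, UQCRQ, ATP5F1C and ATP5F1B the printed run held no whole signal, and an AATAAA began 10 to 20 nt from the deletion. In COX6A1 and NDUFA4, in contrast, the deleted base was an A of the signal itself.

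Most of these genes carried RBMS3 sites at the ends of their messages. A 3′UTR site was present in 58 of the 92 genes (63.0%), beside 31.8% of all protein-coding genes, and 4 more genes had a site elsewhere only. A site at any place was thus present in 62 genes (67.4%), beside 37.6% of all protein-coding genes. Of the 205 sites, 195 (95.1%) lay in a 3′UTR of at least 1 transcript, 9 in introns and 1 in a 5′UTR. In the representative transcripts, 192 of the 195 lay in the 3′UTR, 2 in coding sequence and 1 in an intron. The 2 in coding sequence were in ATP5IF1 and NDUFB9, and NDUFB9 had no other 3′UTR site. Of all 27706 listed sites, 76.6% lay in a 3′UTR of a protein-coding gene. When the genes were split by use, the 58 bound genes were all among the 81 classed as broadly used subunits (71.6%). None of the 9 paralogs classed as tissue-restricted had a site, and 1 of these, UQCRHL, has no 3′UTR in its representative transcript. The split was made with earlier results of these data known. The remaining 2 genes are readthrough loci, ATP5MF-PTCD1 and NDUFC2-KCTD14, whose introns contain the sites of ATP5MF and NDUFC2.

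**Figure D1:**
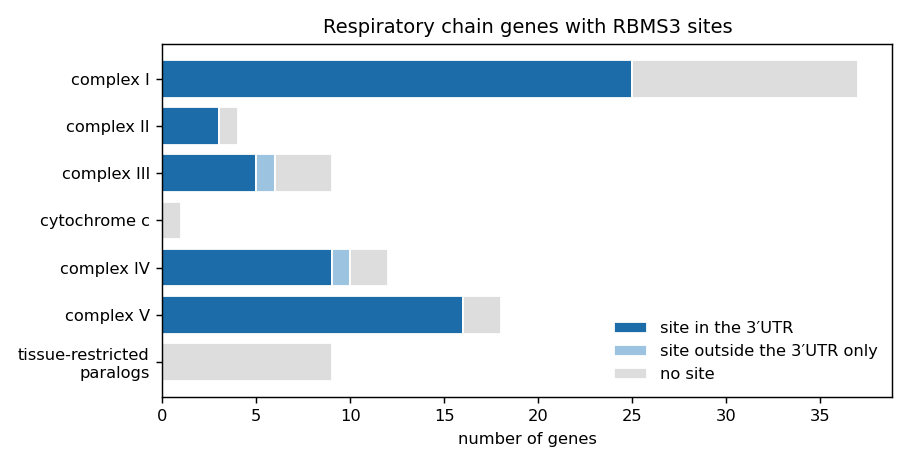
Number of respiratory chain genes (horizontal axis) by complex, with tissue-restricted paralogs apart and readthrough loci left out. Dark bars count genes with a site in the 3′UTR, light bars genes with a site elsewhere only, and grey bars genes with no site; complex V has 16 of 18 genes with a 3′UTR site and the paralogs have 0 of 9.

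The share of bound genes was compared among 3′UTR length classes, because long 3′UTRs offer more room for a site. The median 3′UTR of the representative transcripts was 192 nt for the members and 1064 nt for all protein-coding genes. UQCRHL, with no 3′UTR in its representative transcript, is in no class. Below 150 nt, 23 of 38 members (60.5%) had a 3′UTR site, beside 251 of 1799 genes (13.95%). From 150 nt to under 300 nt the counts were 12 of 17 members (70.6%) and 379 of 2007 genes (18.9%). From 300 nt to under 1000 nt they were 11 of 16 members (68.8%) and 1494 of 5613 genes (26.6%). At 1000 nt or more they were 12 of 20 members (60%) and 4245 of 10119 genes (42.0%). The share of all genes thus rose with length, whereas that of the members stayed between 60% and 70.6%. All protein-coding genes include many that these cells may not express, and the part of expression in these shares was not tested.

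**Figure D2:**
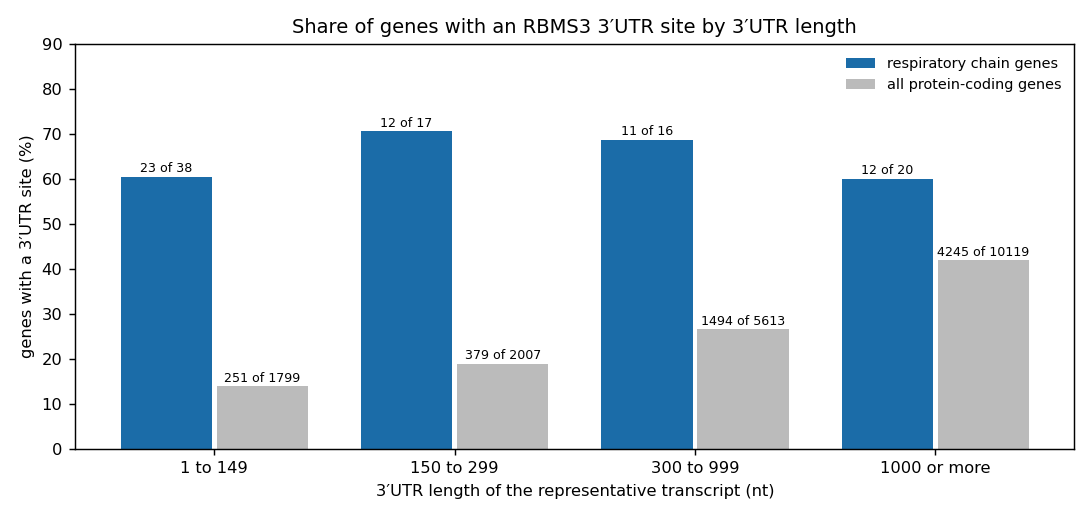
Percentage of genes with a 3′UTR site (vertical axis) by 3′UTR length of the representative transcript in nt (horizontal axis), for the respiratory chain genes (blue) and all protein-coding genes (grey), with counts above the bars. The blue bars lie above the grey bars in each class, and the grey bars rise from 13.95% to 42.0%.

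Complex I passes electrons from NADH to ubiquinone and is the largest complex. It had a 3′UTR site in 25 of 37 genes (67.6%), with 77 sites, a median of 26 nt to the next annotated 3′ end and a median of 1.35% of tags with the deletion. NDUFB3, a small accessory subunit of the membrane arm, had the most deletions of all members, 1195 of 28692 tags (4.17%, 95% Wilson interval 3.94% to 4.40%), 14 nt from the transcript end. NDUFC1, another accessory subunit, followed with 704 of 16952 tags (4.15%), 35 nt from the end. NDUFAB1, the mitochondrial acyl carrier protein, had 391 of 11421 tags (3.42%) 10 nt from the end. The site of NDUFB6 with the most deletions, 358 of 5884 tags (6.08%), lay 139 nt from the next annotated end but 1 nt from an AATAAA, and 8 sites were spread over this region.

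Several core subunits of complex I, which serve the transfer of electrons from NADH, had a 3′UTR site. NDUFS7 had 205 of 2392 tags (8.57%), NDUFS1 131 of 8108 (1.62%), NDUFS3 103 of 6527 (1.58%) and NDUFV2 95 of 3236 (2.94%). NDUFS8 and NDUFV1, also core subunits, had none. Of the 30 accessory subunits, 21 had one. Those without were NDUFA7, NDUFA10, NDUFA11, NDUFB1, NDUFB7, NDUFB11, NDUFS5, NDUFS6 and NDUFV3. This division into core and accessory subunits was made after the values had been seen.

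Complex II, succinate dehydrogenase, also works in the tricarboxylic acid (TCA) cycle. SDHB, its iron-sulfur subunit, had 8 sites in 1 stretch of 61 nt, with 624 of 15275 tags (4.09%, interval 3.78% to 4.41%) at the top site. SDHD, a membrane anchor, had 452 of 20875 tags (2.17%) 47 nt from the end. SDHC, the other anchor, had 44 of 562 tags (7.83%) 2 nt from the end. SDHA, the flavoprotein that oxidizes succinate, had no site. The membrane anchors and the iron-sulfur subunit thus had sites and the catalytic subunit did not.

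Complex III, which passes electrons from ubiquinol to cytochrome c, had 3′UTR sites in 5 of 9 broadly used genes (55.6%). UQCRH, the hinge protein, had 194 of 8864 tags (2.19%) 15 nt from the end, and UQCRB had 179 of 7565 (2.37%) 21 nt from an annotated end. UQCRQ had 69 of 3081 tags (2.24%), CYC1, the heme-bearing cytochrome c1, had 59 of 3998 (1.48%), and UQCR10 had 37 of 1250 (2.96%). Neither UQCRFS1, the Rieske iron-sulfur protein, nor the core proteins UQCRC1 and UQCRC2 had a 3′UTR site, and UQCRC1 had 1 intronic site with 49 of 49 tags. UQCR11, a small subunit, had no site. CYCS, cytochrome c itself, also had none, although its representative 3′UTR of 5045 nt is among the long ones of the set and ends with an AATAAA.

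Complex IV, cytochrome c oxidase, had 3′UTR sites in 9 of 12 broadly used genes (75%) and the shortest distances, a median of 18 nt over 40 sites. COX7C, a small subunit, had 1110 of 45880 tags (2.42%, interval 2.28% to 2.56%) at its top site and 7 sites within 1 cluster. COX8A had 595 of 53278 tags (1.12%), COX7A2 had 594 of 16000 (3.71%) and COX6A1 had 369 of 32832 (1.12%). In NDUFA4, first named as a complex I subunit, both sites lay 1527 and 1531 nt from the next annotated end, with 108 of 7713 and 199 of 7881 tags, and an AATAAA lay within the window around them. COX5A and COX6B1 had no site, and COX7A2L had 1 intronic site with 29 of 29 tags.

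Complex V, ATP synthase, had 3′UTR sites in 16 of 18 broadly used genes (88.9%). ATP5F1C, the gamma subunit of the rotor shaft, had 852 of 13772 tags (6.19%, interval 5.80% to 6.60%) 29 nt from the end. ATP5F1B, the catalytic beta subunit, had 746 of 48362 tags (1.54%) and 9 sites with 2934 deletions in all. ATP5F1A, the alpha subunit, had 243 of 43781 tags (0.555%) among 8 sites. ATP5MK, a small membrane subunit, had 311 of 5937 tags (5.24%). ATP5F1D and ATP5F1E, the delta and epsilon subunits, were the 2 genes without a site, so 3 of the 5 subunits of the F1 head had one. ATP5IF1, the inhibitor of ATP hydrolysis, had 101 of 14750 tags (0.685%) 11 nt from an end.

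**Figure D3:**
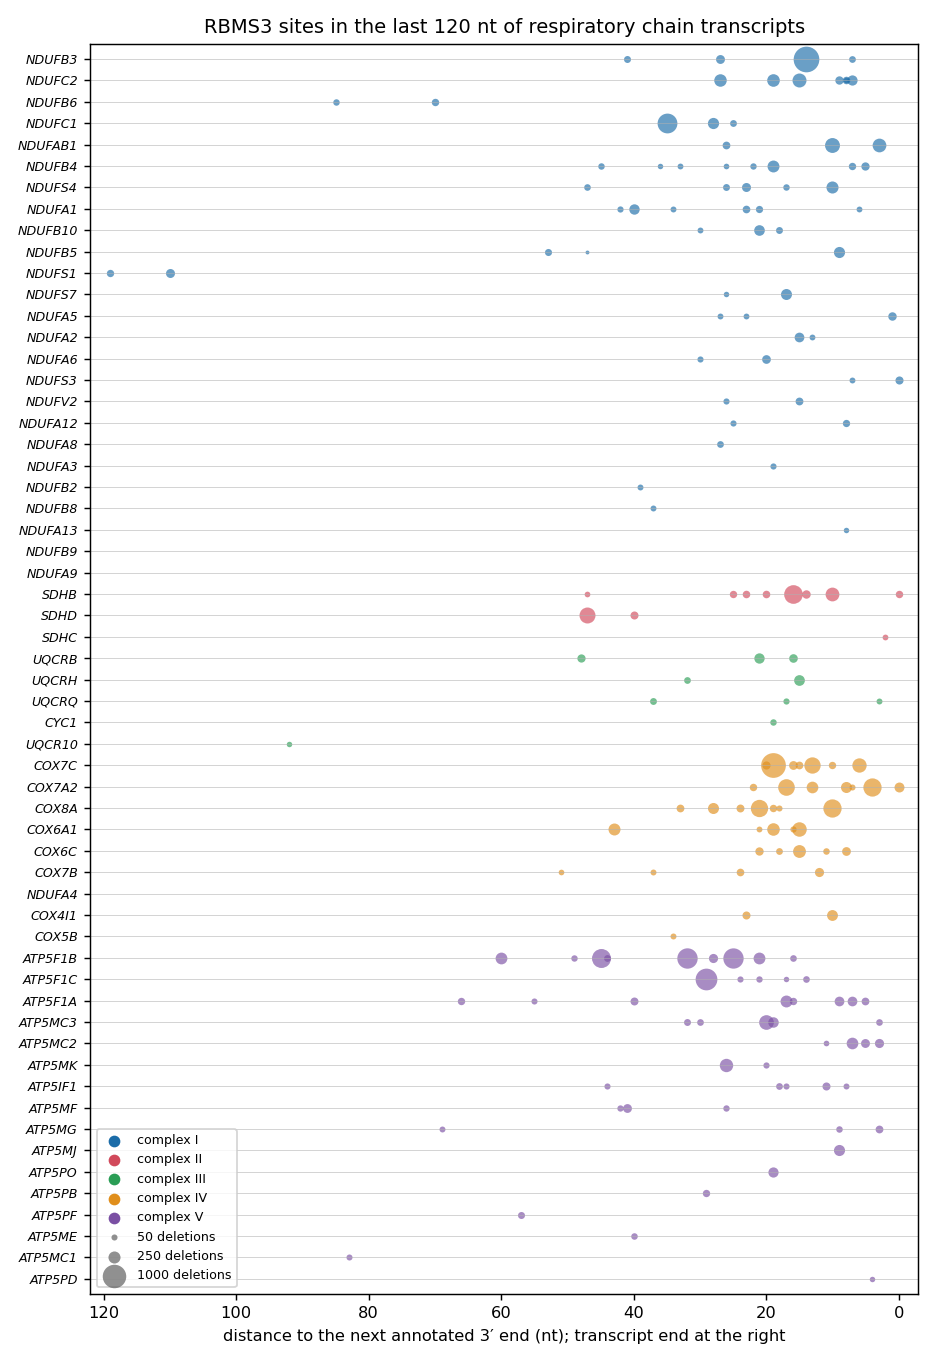
Position of each 3′UTR site within 120 nt of the next annotated 3′ end (horizontal axis, nt, transcript end at the right) for the 58 genes with a 3′UTR site, grouped by complex; the area of a point grows with the number of deletions. The map shows 176 sites, 19 sites lie farther from an end, and 3 genes (NDUFA4, NDUFA9 and NDUFB9) have no site on it.

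The genes whose products come in broadly used and tissue-restricted forms were compared within each pair, and the sites lay in the broad form. COX4I1 had 200 of 7387 tags (2.71%) and COX4I2, a form of lung, had no site. COX6A1 had sites and COX6A2, the heart and muscle form, had none. COX7A2 had 7 sites and COX7A1, also of heart and muscle, had none. The same held for COX7B (136 of 5279 tags) against COX7B2, COX8A against COX8C, NDUFA4 against NDUFA4L2, and ATP5MG (94 of 5217 tags) against ATP5MGL. UQCRH had sites, but UQCRHL has no 3′UTR in its representative transcript and the pair cannot be compared in this way. In the pair of COX6B1 and COX6B2 neither had a site. Whether these cells express the restricted forms was not tested.

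ATP5MC1, ATP5MC2 and ATP5MC3 encode the same mature c subunit of the ATP synthase ring from 3 genes with different 3′UTRs. ATP5MC3 had 378 of 17365 tags (2.18%) 20 nt from an annotated end. ATP5MC2 had 232 of 15710 tags (1.48%) 7 nt from an end. ATP5MC1 had a single site with 49 of 132 tags (37.1%, interval 29.4% to 45.6%), 83 nt from an end. The coverage of the last was far below that of its counterparts.

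The 3′UTR sites lay close to annotated transcript ends. The median distance to the next annotated 3′ end was 21 nt (quartiles 13.5 and 40), beside 34 nt (16 and 234) for all 21222 3′UTR sites. Within 100 nt of an end were 174 of the 195 sites (89.2%), beside 69.3% of all. These distances depend on the annotated ends: with 1 representative transcript per gene the median was 50 nt for the members and 98 nt for all, and 56.8% and 50.2% lay within 100 nt. Short 3′UTRs leave little room for larger distances, and the part of 3′UTR length in this difference was not tested. The library was primed with oligo(dT) after a poly(A) tail had been added, and RNA that ended in poly(A) before could be captured in the same way, so crosslinking near the end and capture of ends cannot be told apart in these libraries.

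The site with the most deletions in each gene was also placed against the end of the representative transcript. It lay within 100 nt of an annotated end in 53 of the 58 genes. In 37 genes the end of the representative transcript was within 100 nt, but in 22 of these an end of another transcript was nearer, and in 16 genes only an end of another transcript was within 100 nt. COX7C is an example of the latter, since its top site was 19 nt from one annotated end and 220 nt from that of the representative transcript. In ATP5F1A the distances were 17 and 3919 nt, and in UQCRB they were 21 and 8016 nt. The 5 genes with a more distant top site were NDUFA4, NDUFA9, NDUFB6, NDUFB9 and NDUFS1.

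Poly(A) signals were common in the windows around the sites. Same-strand sites no more than 50 nt apart were joined into 73 clusters, and 25 nt on each side of the site with the most deletions were searched on the transcribed strand. AATAAA was present in 46 of 73 windows (63.0%), beside 47.4% of the 9975 windows of all 3′UTR clusters. With only 10 nt on each side the shares were 27.4% and 22.3%. ATTAAA was present in 12 (16.4%), beside 16.1% of all, and either in 55 (75.3%), beside 60.6%. Among the 59 clusters within 100 nt of an end, 43 held AATAAA (72.9%), beside 61.2% of all clusters so placed. Among the 14 farther away, 3 held it (21.4%), beside 27.3%.

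**Figure D4:**
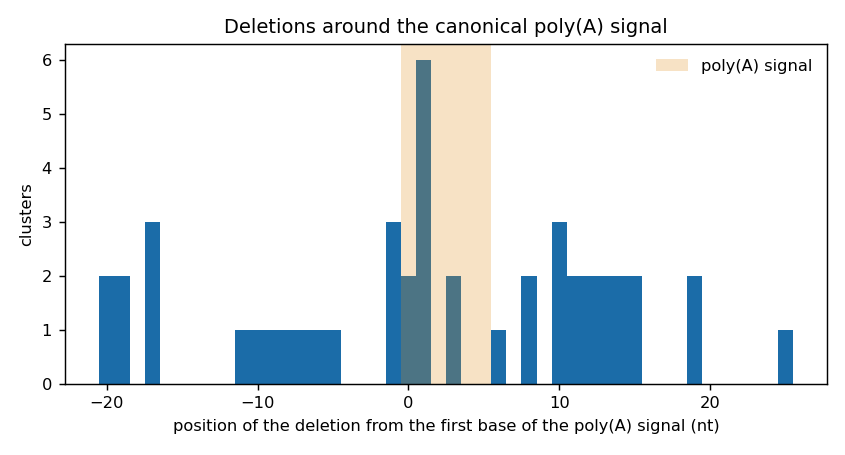
Number of member clusters (vertical axis) by the position of the deleted base relative to the first base of the nearest AATAAA in nt (horizontal axis), for the 46 clusters with AATAAA in the window. The shaded band is the signal. By their listed position, 10 deletions fell inside it, 19 downstream of it and 17 upstream.

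The deletion was on either side of the signal. In the 46 clusters with AATAAA, its listed position was downstream of the signal in 19, inside it in 10 and upstream in 17. Where a run of A crosses the border of the signal, the deletion cannot be placed inside or outside it. Among these were ATP5F1A and ATP5MC2, counted as inside, and ATP5MG and NDUFB4, counted as upstream. The inside and upstream counts are therefore not exact. The inside share was 21.7%, beside 12.7% of the 4724 clusters of all 3′UTRs with the signal. COX7A2 and COX8A had the deletion downstream, COX7C and ATP5MK upstream, and COX6A1 and NDUFA4 inside. The deleted base was T in 46 of 73 clusters (63.0%), beside 74.4% of all, and A in 18 (24.7%), beside 15.2%. Of these 18, 10 lay inside an AATAAA by their listed position. Within 100 nt of an end the shares of A were 25.4% for the members and 16.2% for all. The counts for C and G were 7 and 2.

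The AUA motif, an A- and U-rich pattern of 7 nt around a central AUA (first A, G or T, then A or T, ATA, A or T, and A), was present in 37 of 73 windows (50.7%), beside 47.8% of all. Any AATAAA that follows an A, G or T also matches this pattern. In 29 of the 37 windows every match overlapped a poly(A) signal in this way, and 8 windows (11.0%) held a match apart from it, beside 14.6% of all.

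The ends of the bound and unbound transcripts were also compared without the sites. In 16 of the 58 bound members the top site was within 100 nt only of an end of another transcript, and in 5 of no annotated end. For these genes the end compared need not be the one near the site. The last 50 nt of the representative transcript held AATAAA in 42 of the 58 bound members (72.4%) and in 16 of the 23 broadly used members without a 3′UTR site (69.6%). Another 10 and 3 held ATTAAA only. The median A and U content of these 50 nt was 72% in the bound and 60% in the unbound members. Over all protein-coding genes the medians were 72% with a 3′UTR site and 68% without. NDUFS8 (30%), ATP5F1D (36%) and NDUFV1 (38%) were among the unbound members with low A and U content, but NDUFS7 and NDUFA13, both at 38%, had a site. Conversely, UQCR11 (84%) and UQCRC2 (80%) were among the unbound members with a content above the median of the bound ones.

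Most of the genes with a 3′UTR site had a single region of sites. There were 47 members with 1 cluster, 9 with 2 and 2 with 4, so 11 of 92 (12%) had 2 or more, beside 11.5% of all protein-coding genes. These shares include genes without a site. Among genes with a 3′UTR site, 2 or more clusters were present in 11 of 58 members, beside 2296 of 6371 of all protein-coding genes, a larger share. The median 3′UTR of the representative transcripts was 190.5 nt in these members and 1677 nt in all genes with a 3′UTR site. The part of 3′UTR length in this difference was not tested. NDUFS1, with a 3′UTR of 9368 nt, had 4 clusters at 110, 578, 3151 and 7182 nt from the next annotated end. The first of these was covered by 8108 tags, and that at 7182 nt by 516, of which 50 had the deletion (9.69%). The other 2 were covered by 19 and 23 tags.

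ATP5MG, a membrane subunit of complex V, had 4 clusters at 3, 9, 69 and 1393 nt from an annotated end. The cluster at 1393 nt rested on 20 of 20 tags and lay in an intron of the representative transcript. Those at 9 and 69 nt were measured to the same end. A pair of ends of ATP5MG were thus represented, with 94 of 5217 tags at the downstream end and 60 of 4174 at the upstream one. NDUFC2 also had sites at a pair of ends. The cluster at one had up to 342 deletions in 43618 tags (0.784%), and the site at the more distal one had 42 in 1035 (4.06%). The distal site lay 8 nt from its end.

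The other members with 2 clusters were ATP5IF1, ATP5MC3, ATP5PB, COX7B, NDUFA2, NDUFB5, UQCRB and UQCRQ. In ATP5MC3 the second cluster was 1665 nt from an end, with 43 of 217 tags (19.8%), and in ATP5PB it was 1280 nt away, with 39 of 248 (15.7%). In UQCRB, UQCRQ, NDUFB5 and ATP5IF1 it rested on 33 of 33, 27 of 40, 10 of 13 and 12 of 12 tags. The second clusters of these 6 genes were thus covered by 12 to 248 tags. In COX7B and NDUFA2 both clusters lay within 100 nt of an annotated end.

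Coverage and deleted share were then compared with those of all 3′UTR sites. The median number of tags was 10170 (12 to 54740), beside 4927 for all 3′UTR sites, and the median number of deletions was 82 (10 to 1195), beside 64. The median deleted share was 1.16% (quartiles 0.471% and 2.59%), beside 1.96%. With 1 site per cluster, the one with the most deletions, the medians were 2.96% and 4.59%. These 3 numbers depend on each other, since the share is the ratio of the counts. Among the 185 3′UTR sites with deletions in under 30% of tags, the lowest count was 37 deletions and the lowest coverage 217 tags.

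**Figure D5:**
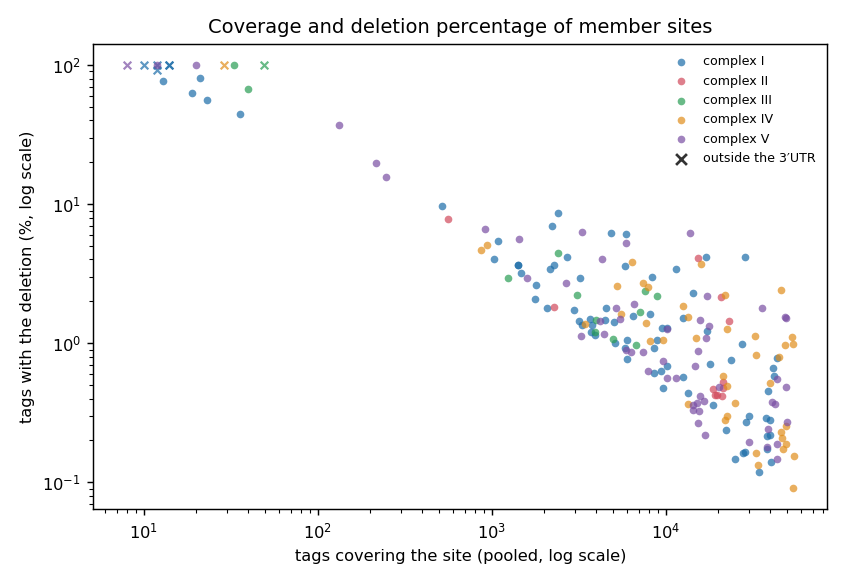
Percentage of tags with the deletion (vertical axis, log scale) against the number of pooled tags covering the site (horizontal axis, log scale) for the sites of the respiratory chain genes, coloured by complex, with crosses for sites outside 3′UTRs. Sites with over 1000 tags lie below 10%, and the 20 sites at 30% or more have 7 to 132 tags. Of these, the sites of the readthrough locus ATP5MF-PTCD1 with 7 of 7 and 10 of 10 tags are not drawn.

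A separate group of 20 sites had the deletion in 30% or more of tags, with coverage of 7 to 132 tags (median 16.5), and 12 of them had it in every tag. Of the 3′UTR sites, 10 of 195 (5.13%) were in this group, beside 12.9% of all 3′UTR sites. Over the whole list, 29.9% of sites were at 30% or more, so sites of this kind were commoner outside 3′UTRs than in them. All 10 member sites outside 3′UTRs belonged to this group. They were single intronic sites in ATP5MC2 (8 of 8 tags), COX7A2L, NDUFA12 (12 of 12), NDUFA3 (14 of 14), NDUFB9 (14 of 14), NDUFS3 (10 of 10) and UQCRC1, 2 in the readthrough locus ATP5MF-PTCD1, and 1 in the 5′UTR of NDUFC2 (11 of 12 tags). The intronic site of NDUFS3 was also in the 3′UTR of PTPMT1, a mitochondrial phosphatase gene. How sites of this kind arose was not tested. For ATP5MC1, NDUFA9 (16 of 36 tags, 44.4%) and NDUFB9 (17 of 21 tags, 81.0%) every 3′UTR site was of this kind, and 55 members had a 3′UTR site under 30%.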

How the data were processed

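The 2 CLIP-seq libraries of FLAG-tagged RBMS3 (MDA-MB-231) form 1 group. The authors appended molecular identifiers to the reads and used the CLIP Tool Kit (version not given in the sources used here) to align them to hg38, keep unique tags, pool both replicates and call deletions as crosslink sites at a false discovery rate under 10%, with a further filter on a fold whose meaning is not given in the sources used here. The deposited values are counts per site, of pooled tags covering it and of tags with the deletion, and are not normalized. Calling on pooled tags means that a site can rest on 1 replicate. Counts per replicate and the depth per library were not analysed here, so depth is given per site.

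The deleted base was taken as the centre of each 21-nt interval, 10 nt from either side. Sites were placed by strand on all transcripts of GENCODE release 44, in the order 3′UTR, 5′UTR, coding sequence, other exon and intron, with the stop codon outside the 3′UTR, and a site in the 3′UTRs of several genes was counted for each. The representative transcript was the Ensembl canonical one. Clusters joined sites within 50 nt, windows had 51 nt, and intervals are 95% Wilson intervals, which cover counting error only. No test was run, because there is a single pooled group.

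The text names the 4 members of complexes I, III, IV and V with the most deletions at a 3′UTR site, all of complex II and cytochrome c, the paralog sets, members with 2 or more clusters or a site outside 3′UTRs, and the broadly used members without a 3′UTR site, of which 1 is not reported here by name. Other named genes, among them core subunits, were chosen after their values were seen. The members and lists were chosen with earlier results of these data known. Alternatives changed the limits on deletions and on their percentage, the annotation, the members, the unit and the window. In a check of the code, 500 of 500 positions drawn from annotated 3′UTRs were placed in a 3′UTR by the same annotation. The position and strand of 307 of 307 poly(A) signals were read back. Tags, deletions and the calling of sites were not simulated, so this check says nothing about them. The software was Python 3.11.15 with matplotlib 3.10.9, numpy 2.4.6, pysam 0.24.0 and scipy 1.17.1, and samtools 1.23.1.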

Additional observations from a re-analysis of the deposited data

How the results depend on the processing

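Of 45 alternatives for the 5 summary values, 32 were called kept and 13 moved. Kept does not mean unchanged. With at least 50 deletions, 48 members with a 3′UTR site beside 58 were called kept. With deletions in under 30% of tags, so was an AATAAA share of 71.4% beside 63.0%. Each kept median or percentage lay inside an interval around the main value, for the AATAAA share 51.6% to 73.2%. The count of members has no such interval. Some of the 32 alternatives could not have moved the value, so the 32 are not all tests of the values. Readthrough loci and tissue-restricted paralogs had no 3′UTR site, so leaving them out could change nothing. Leaving out sites shared with the 3′UTR of another gene could change nothing either, because no member 3′UTR site was shared. With deletions in at least 10% of tags, 11 genes had a 3′UTR site, the median distance was 1106 nt, 16.7% of the 12 sites were within 100 nt of an end, the median deleted share was 65.3%, and 8.33% of clusters held AATAAA. With deletions in under 30% of tags, 93.0% of sites were within 100 nt. With 1 representative transcript per gene, the median distance was 50 nt and 56.8% were within 100 nt. With 1 site per cluster, 80.8% were within 100 nt and the median deleted share was 2.96%. AATAAA was present in 80% of clusters with at least 50 deletions, in 27.4% of windows of 10 nt on each side, and AATAAA or ATTAAA in 75.3%. Under the other alternatives between 48 and 58 members had a 3′UTR site, and NDUFB9 lost its 3′UTR site with 1 representative transcript. In that transcript the site lies in coding sequence. Counts per complex moved in 5 of 50 alternatives, each with deletions in at least 10% of tags. The settings that could not move a value are also among the 50, so the complex counts that were kept are not all tests either. With at least 50 deletions, 20 genes of complex I beside 25 and 2 of complex II beside 3 were called kept. No paired analysis was possible because the replicates were pooled before the sites were called, and for the same reason no replicate could be left out. The member sites with deletions in 30% or more of tags had at most 132 tags, so their shares are the least precise.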

Other observations

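Genes that work beside the respiratory chain subunits also had 3′UTR sites. Of 57 assembly factors, 33 (57.9%) had one, beside 31.8% of all protein-coding genes. The assembly factor of complex I NDUFAF3 had 1577 of 31910 tags (4.94%) 15 nt from an end, more deletions than any subunit. Among the enzymes of the TCA cycle and its pyruvate dehydrogenase entry, 17 of 18 (94.4%) had a 3′UTR site, and IDH2 had none. The shares were 55.1% of 78 mitochondrial ribosomal protein genes and 67.4% of 86 cytosolic ribosomal protein genes, whose median distances to the next annotated end were 26 and 19 nt. Median 3′UTRs were 810 nt for the assembly factors, 1046 nt for the TCA cycle list, and 464.5 and 174 nt for these ribosomal sets. That of the members was 192 nt. The part of 3′UTR length in these shares was not tested.

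Of the 13 subunits encoded by mitochondrial DNA, 9 had sites, all within their coding sequences, as these genes have no annotated 3′UTR. MT-CO3 had 1167 of 78343 tags (1.49%) 41 nt from its annotated end and MT-ND2 had 1105 of 82444 (1.34%) 19 nt from its end. MT-ND1, MT-ND6, MT-CO1 and MT-ATP8 had no site.

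Many of the nuclear genes have processed copies elsewhere in the genome. Of 231 annotated pseudogenes of 51 members, 1 had a site, ATP5MFP3 with 36 of 44 tags (81.8%). A 3′UTR site was present in 40 of the 51 members with a pseudogene and in 18 of 30 broadly used members without one. CYCS, with no site, has 42 annotated pseudogenes. The part of tags lost to several alignments was not tested.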
